A study of Mus musculus with 3 samples.

Results

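The TGF-beta and BMP signaling genes are 49 genes that were listed by name for their place in this pathway, as 14 ligands, 5 antagonists, 3 latent binders, 11 receptors, 8 Smads, 2 Smurfs and 6 target genes. All 49 had a probe on the array, among 35451 genes in all, and 48 had a value on each of the 3 arrays. The list was selected on ratios between the BP and control arrays seen in earlier results of these data, so those ratios are given as a description. Mouse embryonic fibroblasts (MEF), which are primary cells grown from minced embryos of C57BL/6 mice after the head, legs and internal organs are removed, were cultured in serum-containing medium without BP (control), with 10 µg/ml BP (BP10) or with 40 µg/ml BP (BP40). BP is n-butylidenephthalide, a compound from Angelica sinensis, and its duration in these cultures is not given in the sources used here. The labels record no treatment for the control culture, whereas the study describes it as given DMSO, the solvent. The comparison asks which genes of the pathway differed between treated and untreated MEF.

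TGF-beta, activin and BMP ligands bind pairs of type I and type II serine/threonine kinase receptors, which phosphorylate receptor Smads. Smad2 and Smad3 carry the TGF-beta and activin signal and Smad1, Smad5 and Smad9 the BMP signal, both with the common partner Smad4, into the nucleus. The inhibitory Smads, Smad6 and Smad7, and the Smurf ubiquitin ligases act against the signal, and secreted antagonists and latent binding proteins hold ligands back outside the cell. In fibroblasts TGF-beta is best known for raising matrix genes such as Tgfbi, and BMP for raising the Id genes, whose proteins bind bHLH transcription factors and keep them from DNA.

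The 6 promoters below belong to genes that were at least 2-fold apart between the control and a BP array and have an entry in the RefSeq promoter table (GRCm38.p6). They are the Smad genes and the known targets of Smads in the set that stood apart on these arrays, and are shown so that the letters near their start sites can be read beside the ratios. Each is the 250 bases before the annotated start, 5′ to 3′ along the gene. Capitals mark GGCGCC, a GC-rich sequence that Smads bind in BMP-responsive elements, and CAGAC, the CAGA box of TGF-beta-responsive elements, on either strand, so that GTCTG is the box on the other strand. Id2 lies at chr12:25096093-25096342, minus strand, Id3 at chr4:136143572-136143821, plus strand, Id4 at chr13:48260866-48261115, plus strand, Smad6 at chr9:64022060-64022309, minus strand, Smad9 at chr3:54755332-54755581, plus strand and Tgfbi at chr13:56609336-56609585, plus strand.
Id2: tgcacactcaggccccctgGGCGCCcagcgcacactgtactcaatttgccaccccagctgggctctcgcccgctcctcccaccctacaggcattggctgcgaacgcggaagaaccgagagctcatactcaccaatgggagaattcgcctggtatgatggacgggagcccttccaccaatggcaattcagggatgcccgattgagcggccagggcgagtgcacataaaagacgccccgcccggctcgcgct
Id3: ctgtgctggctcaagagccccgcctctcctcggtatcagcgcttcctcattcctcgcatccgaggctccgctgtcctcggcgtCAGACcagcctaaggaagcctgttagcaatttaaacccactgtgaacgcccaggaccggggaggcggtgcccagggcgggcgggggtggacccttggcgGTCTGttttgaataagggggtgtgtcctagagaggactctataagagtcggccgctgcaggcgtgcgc
Id4: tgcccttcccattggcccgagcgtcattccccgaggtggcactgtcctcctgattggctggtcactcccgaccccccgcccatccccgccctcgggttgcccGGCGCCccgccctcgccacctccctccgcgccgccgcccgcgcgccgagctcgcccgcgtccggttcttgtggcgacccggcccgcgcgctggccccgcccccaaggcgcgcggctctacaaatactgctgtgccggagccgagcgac
Smad6: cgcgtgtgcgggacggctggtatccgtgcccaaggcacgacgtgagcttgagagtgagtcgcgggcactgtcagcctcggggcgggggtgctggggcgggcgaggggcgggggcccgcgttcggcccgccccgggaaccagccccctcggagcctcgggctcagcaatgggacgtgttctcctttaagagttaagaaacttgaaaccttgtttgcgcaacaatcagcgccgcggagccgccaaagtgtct
Smad9: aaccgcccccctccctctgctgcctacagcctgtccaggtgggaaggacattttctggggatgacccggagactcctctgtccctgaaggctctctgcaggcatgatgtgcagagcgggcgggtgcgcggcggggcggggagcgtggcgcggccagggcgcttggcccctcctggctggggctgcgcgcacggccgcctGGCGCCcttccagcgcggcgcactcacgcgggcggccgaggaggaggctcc
Tgfbi: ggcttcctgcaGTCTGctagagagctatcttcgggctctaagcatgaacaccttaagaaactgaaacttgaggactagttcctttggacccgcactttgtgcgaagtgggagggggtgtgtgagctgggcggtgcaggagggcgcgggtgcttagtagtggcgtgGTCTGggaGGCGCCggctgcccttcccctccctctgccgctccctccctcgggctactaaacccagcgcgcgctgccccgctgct
GGCGCC occurred once in the Id2, Id4, Smad9 and Tgfbi windows. CAGAC occurred 2 times in the Id3 window and 2 times in the Tgfbi window. The Smad6 window held neither motif. Over the table, 9.54% of 27025 promoter windows of this length held GGCGCC and 42.1% held CAGAC, whereas among the 33 members in the table the windows with them numbered 10 and 15. The palindrome GTCTAGAC, also searched for as a Smad-binding element, was in 0.174% of all windows and in 0 of the 33. None of these motifs contains another, and a match is a description of the letters, not a site.

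Cy3-labeled total RNA was measured on one-colour Agilent mouse arrays, with 1 array per condition. Without replicates no test was possible, and a ratio compares 2 arrays only. Signals are given as log2 of the processed intensity minus the 75th percentile of the array's gene spots, here called the normalized log2 signal, and were compared between arrays for the same probe only. The software's error model gave a median of 0.147 per spot on this scale and 0.204 for a ratio of 2 bright spots, which covers the array measurement and not the spread between cultures. BP10 and BP40 were scanned together and the control on its own, and the software's detrending step changed signals of the BP arrays only. BP and scan session therefore cannot be told apart in the ratios to control. With the signal before detrending, all 9 member calls at BP10 and all 9 at BP40 were kept. Between 68.3% and 81.7% of gene spots were well above background, and no spot was saturated.

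Of the 48 members, 9 were at least 2-fold apart between BP10 and control, 5 higher and 4 lower, where 12.9% of all genes were called, 2.6% higher and 10.3% lower. Between BP40 and control, 9 members were called as well, 6 higher and 3 lower, against 11.5% of all genes, 2.5% higher and 9.0% lower. A call asked for a 2-fold difference and for a probe that the software marked as well above background on either array, and with 1 array so marked the ratio is a bound. The genes higher at both doses were Bmp5, Smad9, Id1 and Id3, and those lower at both were Bmp2 and Tgfbi, together 6 of 48 where 7.28% of all genes were called at both. Gdf5, Tgfbr3 and Id4 were called at BP10 and not at BP40, whereas Chrd, Smad6 and Id2 were called at BP40 and not at BP10. The median log2 ratio of the 48 was -0.02 at BP10 and -0.09 at BP40, beside -0.23 and -0.12 for all genes. Within 1.5-fold of the control lay 25 of the 48 (52.1%) at BP10 and 32 (66.7%) at BP40, beside 58.4% and 60.8% of all genes.

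**Figure D1:**
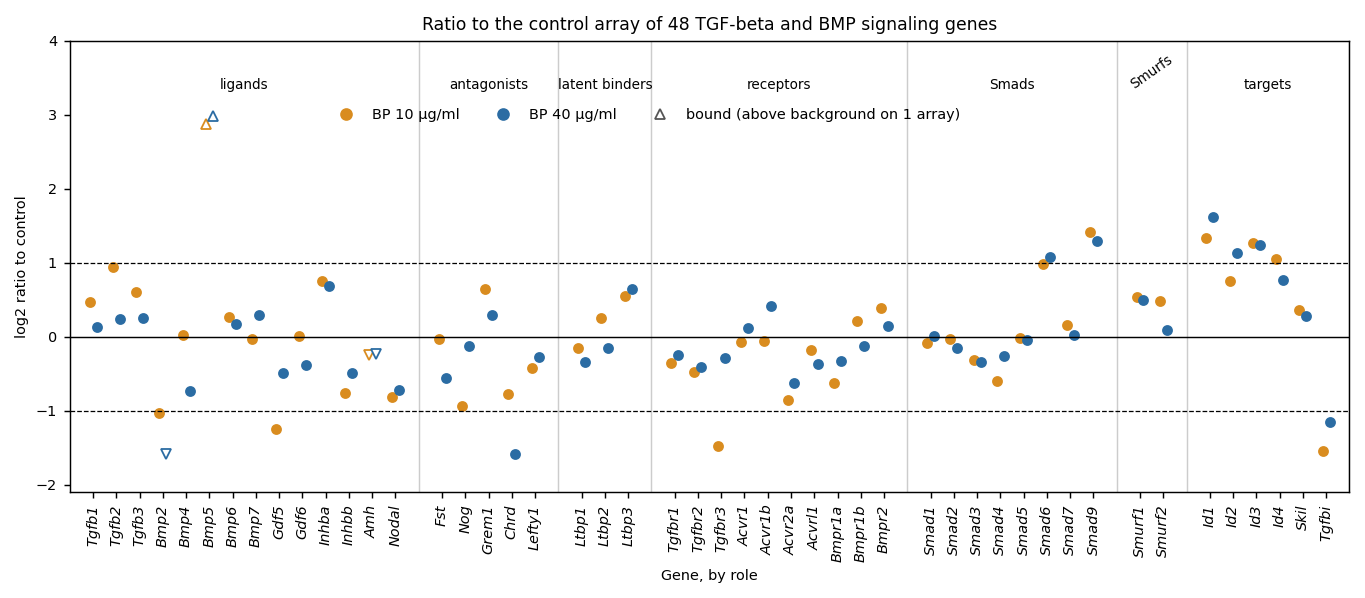
The log2 ratio to the control array of each of the 48 members, by role, for BP10 in orange and BP40 in blue; open triangles are bounds and dashed lines mark 2-fold. The 4 Id genes lie above 0 at both doses, between 0.75 and 1.62, and Tgfbi is more than 2-fold lower than the control at both.

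Id1, an inhibitor of bHLH factors that BMP raises in many cell types, had a normalized log2 signal of 2.54 in the control, 3.87 at BP10 and 4.16 at BP40. Both BP arrays were higher, by 2.52-fold and 3.07-fold, or log2 ratios of 1.33 and 1.62. Its probe covers bases 152563083 to 152563142 of chromosome 2 (mm9, the build of all probe positions here). Id3, its close relative, had 3.72 in the control, 4.99 at BP10 and 4.97 at BP40, which is 2.41-fold and 2.37-fold higher (chromosome 4, 135700075 to 135700249). The BP arrays thus lay close to each other and above the control for Id3, as for Id1.

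Id2, which is also known for its part in adipocyte and lymphoid development, had signals of 1.95, 2.70 and 3.09 on control, BP10 and BP40. Its ratio was 0.75 at BP10, under 2-fold, and 1.13 at BP40 (chromosome 12, 25778904 to 25778963). Id4, an Id gene of the nervous system and mammary gland, had 0.72, 1.77 and 1.48. Its ratio was 1.05 at BP10, just past 2-fold, and 0.76 at BP40, under it (chromosome 13, 48358668 to 48358727). Each of the 4 Id genes was thus higher on both BP arrays than on the control array. At each dose 3 of 4 were called higher, where 2.6% and 2.5% of all genes were. Their ratios at both doses share that control array, and the list was selected on such ratios.

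The other targets went different ways. Tgfbi, which encodes a secreted matrix protein and is named for its induction by TGF-beta, had 4.48 in the control, 2.94 at BP10 and 3.33 at BP40. It was 2.91-fold lower at BP10 and 2.22-fold lower at BP40 (log2 ratios of -1.54 and -1.15; chromosome 13, 56740460 to 56740519). Its control signal stood above both BP arrays. Skil, which encodes the Smad corepressor SnoN, had 2.10, 2.47 and 2.38, with ratios of 0.36 and 0.28 that did not reach 2-fold, and a second probe at 0.60 and 0.51.

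**Figure D2:**
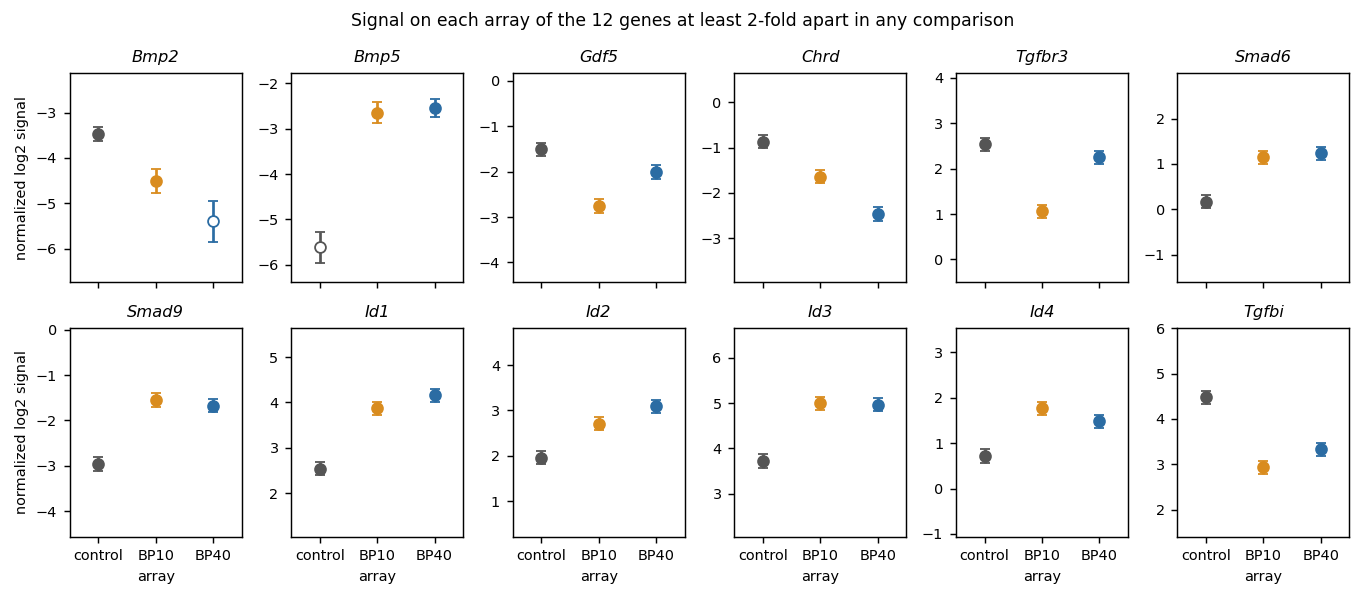
Normalized log2 signal on the control, BP10 and BP40 arrays of the 12 members at least 2-fold apart in any comparison; each point is 1 array, the bars are the scanner software's error for the probe, open points are not well above background, and every panel spans the same range of log2 units. Bmp5, the 4 Id genes, Smad6 and Smad9 sit higher on both BP arrays. Bmp2, Gdf5, Chrd, Tgfbr3 and Tgfbi sit lower on both, Tgfbr3 at BP40 by a log2 ratio of -0.29 only.

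Among the 8 Smads, Smad9 and Smad6 stood apart from the control and the others did not reach 2-fold at either dose. Smad9 (Smad8), a receptor Smad of the BMP branch, had -2.97 in the control, -1.55 at BP10 and -1.68 at BP40. It was 2.66-fold and 2.44-fold higher (chromosome 3, 54605068 to 54605127). Smad6, the inhibitory Smad that acts mainly on BMP receptors and is itself a BMP target, had 0.16, 1.15 and 1.24. Its ratios of 0.98 and 1.07 lay on either side of 2-fold (chromosome 9, 63800980 to 63801039), although its signals on the BP arrays differed by 0.09 only.

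The common Smad and the receptor Smads of the TGF-beta branch did not reach 2-fold on any probe. Smad4, the common partner, had 3.95 in the control, 3.34 at BP10 and 3.68 at BP40, with ratios of -0.61 and -0.26, but a second Smad4 probe gave 0.49 and -0.22. Smad3, which carries the TGF-beta and activin signal, had 3.40, 3.09 and 3.07, or ratios of -0.31 and -0.34, and its second probe gave 0.51 and 0.24. The probes of Smad4 thus disagreed in sign at BP10 and those of Smad3 at both doses. Smad2, the partner of Smad3, had ratios of -0.03 and -0.16. Smad5, which works with Smad1 in the BMP branch, had 3.09, 3.07 and 3.04 on control, BP10 and BP40, with ratios of -0.02 and -0.05, whereas a dimmer second probe gave -0.41 and -0.68. Smad1 had -0.09 and 0.01, while a second and dimmer probe of it gave 0.99 and 0.73. Smad7, the inhibitory Smad that TGF-beta raises, had ratios of 0.16 and 0.03. The Smurf genes, ligases for Smads and receptors, were above the control by less than 2-fold, Smurf1 by 0.53 and 0.50 on the log2 scale and Smurf2 by 0.48 and 0.09, with further Smurf2 probes at 0.63 and 0.18 and at 0.62 and 0.19.

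Of the 10 receptors measured on all arrays, 8 had a ratio below 0 at BP10 and 7 at BP40, where 65.1% and 57.7% of all genes did, and their median was -0.27 at both doses. Tgfbr3 (betaglycan), the co-receptor that presents TGF-beta2 and binds inhibin, was the receptor that stood apart. It had 2.54 in the control, 1.07 at BP10 and 2.25 at BP40. The BP10 array was the low one, 2.78-fold under the control (log2 ratio -1.47), whereas BP40 was within 2-fold of the control, at -0.29 (chromosome 5, 107535818 to 107535877).

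Tgfbr2, the type II receptor for TGF-beta, had 3.85, 3.36 and 3.43, or ratios of -0.48 and -0.41, and a dimmer second probe gave -0.02 and 0.12. Tgfbr1, the type I receptor, had ratios of -0.36 and -0.25. Bmpr1a, a type I BMP receptor, had 2.59, 1.96 and 2.26, with ratios of -0.63 and -0.34. Acvr1 (ALK2), a type I receptor for BMPs, had 3.96, 3.88 and 4.07, or ratios of -0.07 and 0.12, and a second probe gave 0.26 and -0.14. The remaining receptors lay between -0.86 for Acvr2a, an activin type II receptor, at BP10 and 0.42 for Acvr1b, the activin type I receptor, at BP40. A second Acvr2a probe gave 0.21 and -0.39, and a second Acvr1b probe 0.13 and 0.09. Acvrl1 had -0.18 and -0.36, Bmpr1b 0.22 and -0.13 (0.34 and -0.06 on a second probe) and the BMP type II receptor Bmpr2 0.39 and 0.14. Acvr2b had no ratio at BP10, because its spot was flagged as an outlier on that array, and was at 0.30 for BP40 against control.

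Of the 14 ligands, Bmp5 was higher and Bmp2 lower at both doses, and Gdf5 was lower at BP10. Bmp5, a BMP of the Bmp7 group, had -5.62 in the control, where it was not well above background, -2.65 at BP10 and -2.54 at BP40. It was at least 7.36-fold higher at BP10 and at least 7.93-fold higher at BP40 (log2 bounds of 2.88 and 2.99; chromosome 9, 75746444 to 75746503). These sizes depend on the processing, since normexp background correction gave log2 ratios of 1.75 and 1.90 and quantile normalization 3.52 and 3.65. Bmp2, a ligand of the same receptors as Bmp4, had -3.47, -4.51 and -5.40 and was not well above background on BP40. It was 2.05-fold lower at BP10 and at least 3.0-fold lower at BP40 (chromosome 2, 133388260 to 133388319). The Bmp2 call ended at both doses with normexp (-0.41 and -0.58) or with the median ratio of equally bright genes subtracted (-0.32 and -0.99), and at BP10 with quantile normalization (-0.58).

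Gdf5, a BMP-like ligand of joint formation, had -1.51, -2.76 and -2.00. Its ratio was -1.25 at BP10 and -0.50 at BP40, while a second probe gave -0.99 and -0.95, so the probes differed in how the doses compared (chromosome 2, 155766801 to 155766860). The call at BP10 ended with normexp (-0.94) and with the median ratio of equally bright genes subtracted (-0.96). Bmp4, a main BMP of mesenchymal cells, had 2.21, 2.22 and 1.46. It was level with the control at BP10, with a ratio of 0.02, and at -0.74 at BP40. Nodal, the ligand of early patterning, had ratios of -0.81 and -0.72. Of the remaining BMP-type ligands, Bmp6 had 0.26 and 0.17, Bmp7 -0.03 and 0.30, and Gdf6 0.01 and -0.39. Amh, the anti-Müllerian hormone, was well above background on the control array only, and its bounds of -0.25 and -0.23 did not reach 2-fold.

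None of the 3 TGF-beta ligands and neither activin subunit reached 2-fold. Tgfb3 had 5.06 in the control, 5.66 at BP10 and 5.31 at BP40, over 8 to 10 spots an array, with ratios of 0.60 and 0.25. The Tgfb2 probe that stands for the gene gave 0.93 and 0.23, and a second probe gave 0.36 and -0.02. Tgfb1 had 0.47 and 0.13. Inhba, whose product forms activin A, had 5.78, 6.54 and 6.46, with ratios of 0.75 and 0.68, and Inhbb, the subunit of activin B, had 3.58, 2.81 and 3.08, with -0.77 and -0.50.

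Among the antagonists, Chrd (chordin), which binds BMPs outside the cell, had -0.87 in the control, -1.64 at BP10 and -2.46 at BP40. It was 3.0-fold lower at BP40, with a ratio of -1.59, and -0.77 at BP10 was under 2-fold (chromosome 16, 20739049 to 20739221). A dim second Chrd probe gave -0.68 and -0.43. Grem1 (gremlin), a BMP antagonist of fibroblasts, had 3.39, 4.02 and 3.68, with ratios of 0.64 and 0.30. Fst (follistatin), which binds activins, had 3.40, 3.38 and 2.84, with ratios of -0.03 and -0.56. Nog (noggin) had -0.94 and -0.13, and Lefty1, which blocks Nodal, had -0.43 and -0.27. Of the genes listed as latent binders, Ltbp3 had 3.70, 4.24 and 4.34, or ratios of 0.55 and 0.64, with a second probe at 0.45 and 0.42. Ltbp1 had 3.29, 3.13 and 2.94 (-0.16 and -0.34), and Ltbp2 had 5.86, 6.11 and 5.71 (0.25 and -0.15).

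Between BP40 and BP10, which were scanned together and do not share the control, 1 of 48 members was called, Tgfbr3, against 3.65% of all genes (1.88% higher and 1.77% lower). Tgfbr3 was 2.28-fold higher at BP40, with a log2 ratio of 1.19. Bmp2, not well above background on BP40, had a measured ratio of -0.89 and a bound of -0.55. The next in size with both arrays above background were Nog at 0.81, Chrd at -0.81, Bmp4 at -0.76, Gdf5 at 0.75 and Tgfb2 at -0.70, each under 2-fold. Within 1.5-fold lay 41 of the 48 (85.4%), beside 77.0% of all genes. The Id genes differed little between the doses, from -0.29 for Id4 to 0.39 for Id2. For the genes that both doses called, Bmp2 apart, BP40 against BP10 gave 0.11 for Bmp5, -0.13 for Smad9, 0.29 for Id1, -0.03 for Id3 and 0.39 for Tgfbi.

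The size of a ratio that is common on these arrays depends on the signal. Of the 33 members with a mean normalized log2 signal above 0, 5 were called at BP10, which were Tgfbr3, Id1, Id3, Id4 and Tgfbi, where 2.2% of the 10949 genes of that signal were called. At BP40, 5 of the 33 were called, Smad6, Id1, Id2, Id3 and Tgfbi, where 1.75% of those genes were. Of the members, 3 were higher and 2 lower at BP10, where 0.603% of genes of this signal were higher and 1.6% lower. At BP40, 4 were higher and 1 lower, where the shares were 0.859% and 0.895%. Between BP40 and BP10, Tgfbr3 was the 1 member called of the 33, against 1.7% of those genes, 1.18% higher and 0.521% lower. Against all genes of their own brightness class, 12 of the 48 members lay above the 95th percentile at BP10 and 5 below the 5th. At BP40, 9 lay above and 5 below. The members above at both doses were Bmp5, Inhba, Ltbp3, Smad6, Smad9 and the 4 Id genes, and those below at both were Inhbb and Tgfbi. Bmp2 and Gdf5 lay inside the range of genes as dim as they are at both doses. For BP40 against BP10, 3 members lay above, Gdf5, Nog and Tgfbr3, and 6 below, Tgfb2, Tgfb3, Bmp4, Fst, Chrd and Ltbp2. The list was chosen with such values in view, so these counts describe it and support nothing.

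**Figure D3:**
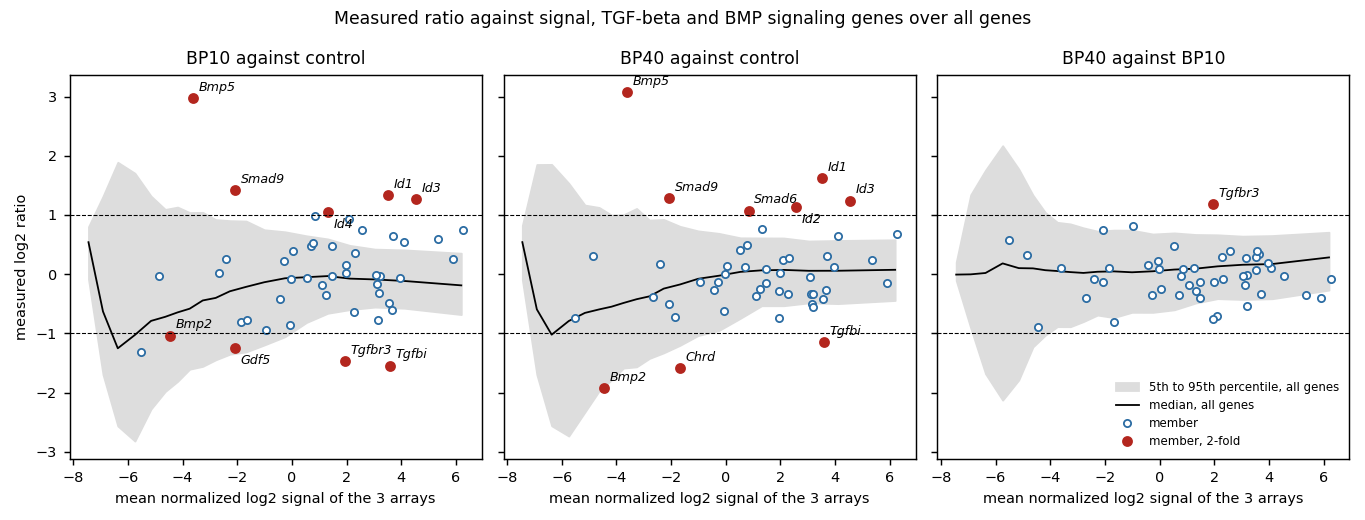
Measured log2 ratio of each member against its mean normalized log2 signal over the 3 arrays, in the 3 comparisons; the grey band runs from the 5th to the 95th percentile of all genes in 20 brightness classes, the line is their median, dashed lines mark 2-fold and filled points are members called. The band widens toward dim genes, and Id1, Id3 and Tgfbi lie outside it in both comparisons with the control, with ratios of 1.33 and 1.62, 1.27 and 1.24, and -1.54 and -1.15.

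Different probes of 1 gene gave ratios that differed by a median SD of 0.294 at BP10 and 0.225 at BP40 over 4730 genes with a pair of probes above background. The members had 69 probes in all, and 18 members had more than 1. Of 18 further probes with a ratio at BP10, 10 had the sign of the probe used and 8 the other sign, and at BP40 the sign was the same for 14 of 19. The Id genes, Smad6, Smad9, Tgfbi, Tgfbr3, Bmp2 and Bmp5 each had 1 probe, so their ratios have no second probe beside them. Of the called members, Gdf5 and Chrd had a second one, given above.

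**Figure D4:**
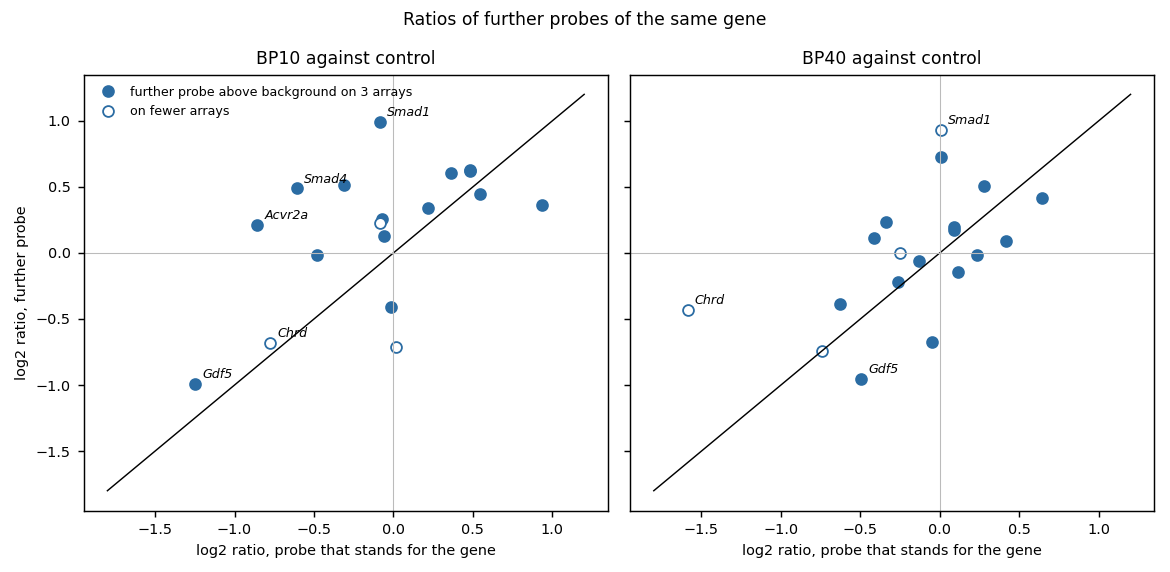
The log2 ratio of each further probe of a member against that of the probe that stands for the gene, at BP10 and BP40; filled points are further probes above background on all 3 arrays, and the diagonal marks equal ratios. At BP10 the second probe of Smad1 lies at 0.99 beside -0.09 and that of Acvr2a at 0.21 beside -0.86, while Gdf5 and Chrd have the same sign on both probes.

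A further 80 genes of the pathway, listed from general knowledge of its ligands, receptors, regulators and targets, were counted the same way. At BP10, 8 were called, 2 higher and 6 lower, and at BP40, 10 were called, 4 higher and 6 lower, with medians of -0.13 and 0.02. These are 10.0% and 12.5% of the list, beside the 12.9% and 11.5% of all genes. At both doses, 1 gene was called higher and 3 were called lower, or 5.0% beside 7.28% of all genes. Atoh8, a bHLH gene known as a BMP target, was the higher one, with -1.11 in the control, 0.75 at BP10 and 0.29 at BP40, or ratios of 1.86 and 1.40. The lower ones were Bmp8b at -1.37 and -1.19, Lefty2, an antagonist of Nodal, at -1.05 and -1.06, and the integrin gene Itgb6, which encodes a subunit of an activator of latent TGF-beta, with bounds of -1.90 and -1.89. Itgb6 was well above background on the control array only.

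The labelled cell type was checked against 12 fibroblast markers, all of them above background on each array. The log2 of their summed normalized signal was 10.55 in the control, 10.10 at BP10 and 10.22 at BP40, and their median ratio was -0.58 at BP10 and -0.63 at BP40. All 12 were below the control at BP10 and 10 at BP40, where 65.1% and 57.7% of all genes were. Among them were collagen gene Col1a1 at -0.73 and -0.85, Col3a1 at -0.75 and -1.22 and Lum (lumican) at -3.19 and -2.21. The 2 above the control at BP40 were Col1a2, the marker of highest signal, at -0.30 and 0.10, and Fn1 at -0.17 and 0.15. Tgfbi was thus lower on the same arrays as most of these matrix and mesenchymal markers, and their part in its ratio was not tested. Markers of other cell types had a lower summed signal, with 9 of 9 macrophage markers and 6 of 9 endothelial markers above background on all arrays. Their median ratios were -0.30 and -0.07 for macrophage and -0.36 at both doses for endothelial markers. Adipocyte markers, where Pparg had the highest signal, had medians of -0.53 and -0.10 while their summed signal was 1.15, 1.95 and 1.78 on control, BP10 and BP40. Over the epithelial, cartilage and bone, skeletal muscle and neural lists, 6 of 8, 8 of 9, 5 of 8 and 6 of 6 markers were above background on all arrays, with medians between -0.56 and -0.06. On each array, between 68.3% and 81.7% of all gene spots were well above background. A count near that share does not show that a cell type was present. The endothelial markers Cdh5, Tie1 and Esam, the epithelial markers Cdh1 and Epcam, and Matn1 and Myf5 were above background on no array. The part of other cells in the Id ratios was not tested. In a culture, fewer cells that express a gene and less RNA of it per cell cannot be told apart.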

How the data were processed

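Total RNA of MEF was hybridized by the authors to 3 Agilent mouse arrays, 1 per condition, and scanner output made with Feature Extraction 10.5.1.1 was deposited. The deposited intensity of each spot was background-corrected by the software and not scaled between arrays; the values in the series table equal it within a relative tolerance of 0.0001 for 100% of spots. The study names GeneSpring GX for its analysis and gives no threshold. The detrending step changed signals on the BP arrays by factors of 0.904 to 1.461 and left the control array as it was.

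Control spots and outlier spots were left out, log2 was taken, the 75th percentile of gene spots was subtracted per array, and spots of a probe were averaged. Of 55681 probes, 26425 were named by the RefSeq symbol of their accession and the rest by the scanner file. For a gene with several probes, the one detected on more arrays was taken, and the brighter one on a tie. Probe positions are those in the scanner files (mm9). In a bound, the dim array was set to the higher of its own signal and the lowest signal among probes whose every spot was well above background (-5.53 on control, -5.07 on BP10, -5.05 on BP40). Named in full were the members called in any comparison and those above 2 on the control array; of the 80 further genes, those called higher, or lower, at both doses were named. The members and the lists were chosen with earlier results of these data known. Python 3.11.15, numpy 2.4.6, pandas 2.3.3, R 4.3.3 and limma 3.58.1 (normexp, quantile) were used. Alternatives were other fold thresholds, filters on dim probes, scalings, a background correction, the median of a gene's probes, the series table and the signal before detrending. Calling was tested on simulated data with known changes larger than 2-fold and the same noise at every signal. That check does not show how calls near 2-fold or calls of dim genes behave.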

Additional observations from a re-analysis of the deposited data

How the results depend on the processing

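No paired analysis was possible because there was a single array of each kind. Over 11 alternatives, 48 of the 54 counts and medians of the members stayed within tolerance (1.5 times for a count, the median SD between probes of a gene for a median). The fold threshold moved the other 6, by its construction: at 1.5-fold 22 members were called at BP10, 15 at BP40 and 6 in BP40 against BP10, where 28.5%, 26.5% and 13.3% of all genes were, and at 3-fold 1, 3 and 0, where 2.63%, 2.32% and 1.13% were. Asking for a probe above background on both arrays removes the calls that are bounds. That left 8 at BP10 and 7 at BP40, where 9.63% and 8.86% of all genes were called. Of 588 ratios of named members, 551 stayed within tolerance, 37 moved past it, and 0 called ratios changed sign. 1 of the 11 alternatives, the series table, holds the processed signal itself for 100% of spots. Its counts, medians and ratios are among these totals and could not move. The calls of Bmp5, Smad9, Id1, Id3, Tgfbi and Tgfbr3 were kept under each normalization and background correction. Each of these genes has 1 probe, so the median over a gene's probes could not change them. Id1 ranged from 1.33 to 1.43 at BP10 and from 1.54 to 1.70 at BP40, and Tgfbi from -1.54 to -1.43 and from -1.23 to -1.08. Bmp2 at BP10 lost its call with quantile normalization (-0.58), with the median of its brightness class subtracted (-0.32) and with normexp (-0.41), and at BP40 with the latter pair (-0.99 and -0.58). Gdf5 at BP10 lost it with the brightness class (-0.96) and normexp (-0.94). Smad6 at BP10 passed 2-fold with quantile normalization (1.003), normexp (1.03), the brightness class (1.03) and the signal before detrending (1.07), and at BP40 fell to 0.996 when arrays were scaled on probes detected in all of them. Inhba at BP10 passed it with quantile normalization (1.03) and Chrd at BP10 before detrending (-1.02). The alternative before detrending was chosen after seeing the data. It gave 12 members at BP10, 6 of them higher, where 13.5% of the 32138 genes with a value were called. The split of higher and lower members at BP10 was 5 and 4, against 7 and 3 with quantile normalization and 7 and 2 with the brightness class. In that order, 12.9%, 9.92% and 9.0% of all genes were called. Quantile normalization and the brightness class shift the median of all genes at BP10 by 0.19 and 0.23. Normexp shifts it by 0.14 at BP10 and 0.18 at BP40. The causes were not tested. With 1 array per condition, the number of arrays limits the precision of every ratio.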

Other observations

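The 6 smooth muscle markers include genes that TGF-beta raises in fibroblasts that turn into myofibroblasts, and their median ratio was 0.11 at BP10 and 0.12 at BP40. Acta2, the smooth muscle actin gene, had a normalized log2 signal of 8.25 in the control, 8.17 at BP10 and 8.39 at BP40. Tagln had 8.14, 8.21 and 8.25, and Cnn1 had 6.98, 7.12 and 7.12. The log2 ratios of these 3 genes lay between -0.08 and 0.14. Smtn had 0.08 and -0.04, Lmod1 0.55 and 0.89, and Myh11 0.56 and -0.78. Of the fibroblast matrix genes, Fn1 had ratios of -0.17 and 0.15 and Col1a2 -0.30 and 0.10. Fn1 and Col1a2 were picked from the marker lists after their values were seen, and no test was made.

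Of the 80 further genes of the pathway, 14 were called at either dose and 4 at both. Of all 35451 genes, 6060 were called at either dose and 2581 at both. Some of the further genes called at 1 dose follow. Gdf2 and Inhbc were called higher and Bmp3 and Fbn2 lower at BP40 only. Gdf3 and Sostdc1 were called lower at BP10 only. The ligand gene Gdf2 had the highest BP40 ratio of the 80, at 2.81, from a dim control signal of -5.06, and was not well above background on BP10. Gdf15, a stress-induced ligand of the family, had 1.56, 2.29 and 3.48 on control, BP10 and BP40, with ratios of 0.73 at BP10 and 1.92 at BP40 and of 1.18 for BP40 against BP10. Hey1, a Notch and BMP target, had -1.72, -0.21 and -1.47, so that BP10 stood above both other arrays, by 1.51 on the log2 scale against the control. Dcn (decorin), a matrix proteoglycan that binds TGF-beta, had -1.05 at BP10 and -0.49 at BP40, and Postn (periostin), a matrix gene that TGF-beta raises, had -0.70 and -1.03. These too were picked after their values were seen.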
